A study of Mus musculus with 13 samples.

Results

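The genes described here are the chemokines and chemokine receptors, taken as every gene whose symbol is Ccl, Cxcl, Ccr or Cxcr followed by a digit. They numbered 55 of the 55487 genes in the deposited count table: 25 CC ligands, 13 CXC ligands, 11 CC receptors and 6 CXC receptors. RNA was sequenced from 3 libraries of sinoatrial node pacemaker cells (PC) and 3 of cardiomyocytes of the right atrium (RACM). Both were isolated by flow sorting from neonatal mice carrying 2 reporters, Hcn4-GFP, a green reporter of the pacemaker channel gene, and Myh6-mCherry, a red reporter of a heart muscle myosin gene, so all groups share both transgenes. Every library is a pool, since node and right atrial tissue of 8 to 10 hearts was combined for each replicate before sorting. The titles number the libraries p0, p2 and p4 in both cell types, and the labels of the RNA libraries, which give the stage as neonatal, do not define that number.

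Chemokines are small secreted proteins that form gradients and steer migrating cells. Their receptors are G protein-coupled receptors, carried mostly by leukocytes. The family is named by the spacing of the first cysteines, adjacent in CC chemokines and separated by a residue in CXC chemokines. Inflammatory chemokines, such as Ccl2 and Cxcl1, are switched on by cytokines and NF-kappaB and recruit monocytes and neutrophils. Homeostatic ones are made steadily, and the best known of these in the heart is Cxcl12, which signals through Cxcr4 and is needed for coronary vessel development in the mouse.

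Total counts ranged from 14141151 to 22290996 per library. The labels were checked against marker genes. The 5 pacemaker markers summed to 3354 to 3437 CPM, the count scaled to library size, in PC and 66.4 to 91.3 CPM in RACM, and the 7 cardiomyocyte markers summed to at least 38552 CPM in every library. Macrophage markers were present in both, with all 14 detected in each cell type, at a summed 35.0, 16.4 and 54.9 CPM in the p0, p2 and p4 libraries of PC and 227, 558 and 931 CPM in the RACM libraries of those numbers. In bulk RNA such as this, fewer cells of a type cannot be told apart from less RNA per cell.

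Of the 55 genes, 49 had a count in some library and 21 passed the filter on low counts and were tested. Ccl1, Ccl19-ps1, Ccl21b, Ccr6, Ccr8 and Cxcr1 had no count in any library. The number of the 55 genes with a count was 26, 22 and 31 in the p0, p2 and p4 libraries of PC, and 37, 39 and 41 in the RACM libraries of those numbers. At 10 CPM or more there were 3, 3 and 6 genes in PC and 6, 12 and 14 genes in RACM, in the same library order. The highest of the 34 genes not tested was Ccl24, an eosinophil attractant, with 112 counts or 5.39 CPM in RACM p4.

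**Figure D1:**
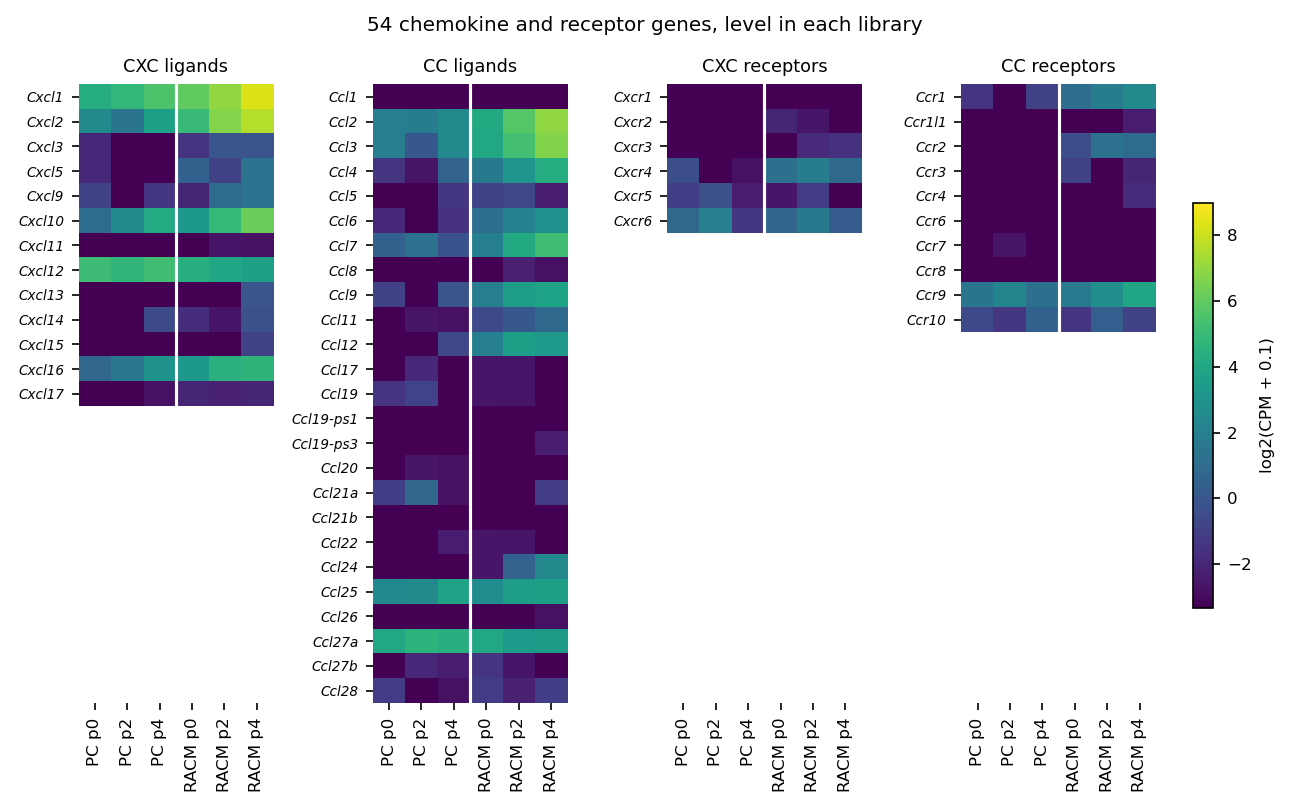
Level of 54 of the 55 genes in each library, as log2(CPM + 0.1), with the 3 PC libraries left of the white line and the 3 RACM libraries right of it. The brightest cells are Cxcl1 and Cxcl2 in RACM p4, at 331 and 200 CPM, while most receptors stay dark in all 6 libraries.

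The family as a whole was at a lower summed level in PC, and Cxcl12 held a larger share of it there. All 55 genes together reached 104, 117 and 180 CPM in the p0, p2 and p4 PC libraries, against 228, 503 and 1033 CPM in the RACM libraries of those numbers. The highest PC sum lay below the lowest RACM sum. Ligands made up nearly all of it, with 97.3, 107 and 175 CPM in PC and 214, 475 and 994 CPM in RACM, while the 17 receptor genes summed to 6.47, 9.78 and 5.91 CPM in PC and 14, 27.3 and 39.3 CPM in RACM. Cxcl12 alone held 33.7%, 23.6% and 20.3% of the family's CPM in the 3 PC libraries, against 9.48%, 3.07% and 1.22% in the 3 RACM libraries. Cxcl1 held 18.8% to 26.2% in PC libraries and 25.2% to 32.0% in RACM libraries, so its share overlapped between the cell types.

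PC were set against RACM to ask which of these genes distinguish pacemaker cells from atrial muscle beside them. Of the 21 genes tested, 12 were lower and 1 was higher in PC at an adjusted p below 0.05 (edgeR quasi-likelihood test, Benjamini-Hochberg adjustment over 18015 genes), where 3.57% of all genes tested were lower and 3.69% were higher. The lower genes were 8 CC ligands, 2 CXC ligands and 2 CC receptors, and the higher gene was Cxcl12. The median log2 fold change, PC minus RACM, was -3.75 over the 21 tested and 0.01 over all genes tested. All 3 PC libraries lay below all 3 RACM libraries for 15 of the 21, against 13.4% of all genes tested, and above them for Cxcl12, against 13.5%. These counts cover genes that passed the filter, some of them only through their RACM level. Among the 12 lower genes these were Ccl4, Ccl6, Ccl9, Ccl11, Ccl12, Ccr1 and Ccr2.

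**Figure D2:**
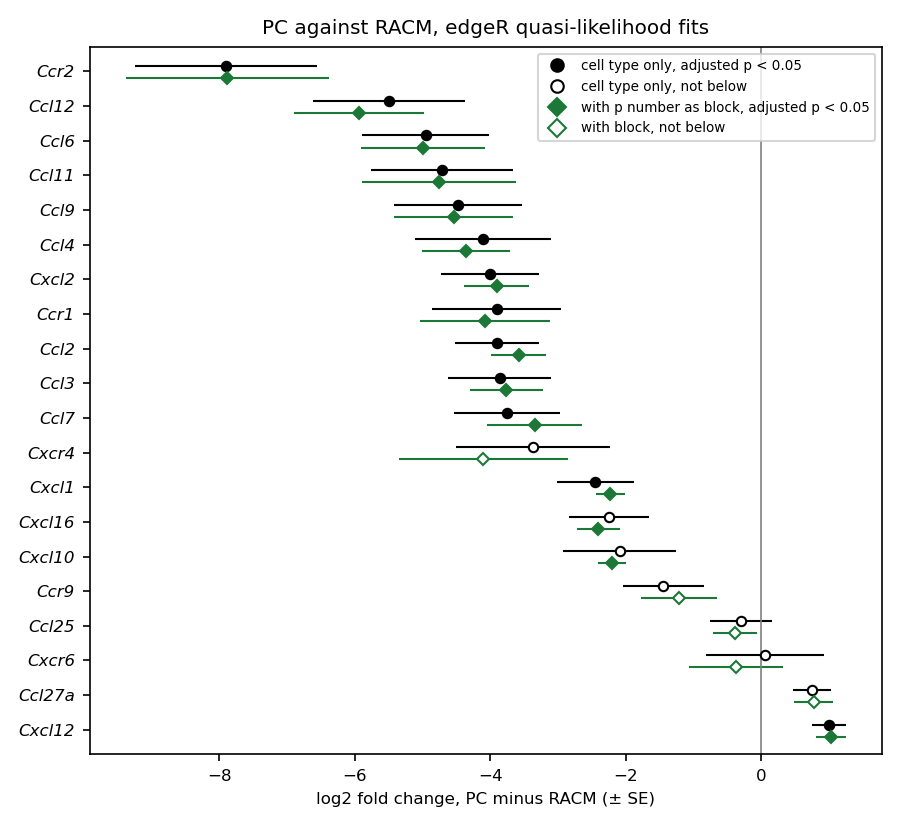
Log2 fold change, PC minus RACM, with its SE for 20 of the 21 genes tested, from the fit with cell type only (circles) and with the p number as a replicate block (diamonds). Filled symbols pass an adjusted p of 0.05; in the first fit, estimates run from -5.50 for Ccl12 to 1.0 for Cxcl12, apart from Ccr2, whose 0 counts in PC leave a fitted point that is no bound.

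Cxcl1 and Cxcl2, which recruit neutrophils through Cxcr2, were both lower in PC. Cxcl1 (ENSMUSG00000029380, mm10 chromosome 5 from 90891241 to 90893115, plus strand) stood at 19.5, 28.6 and 47.2 CPM in the p0, p2 and p4 PC libraries, against 63.5, 127 and 331 CPM in the RACM libraries of those numbers. The groups did not overlap, and in each the p0 library was the lowest and the p4 library the highest. The log2 fold change was -2.45 ± 0.56 (SE, n = 3 each; edgeR adjusted p = 0.034). Cxcl2 (ENSMUSG00000058427, chromosome 5 from 90903871 to 90905938, plus strand) stood at 5.74, 2.55 and 12.6 CPM in PC, against 32.0, 104 and 200 CPM in RACM, giving a log2 fold change of -4.00 ± 0.73 (SE; edgeR adjusted p = 0.0133). Every PC value of Cxcl2 lay below every RACM value.

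These 2 genes lie side by side on chromosome 5 with Cxcl5, Cxcl3 and Cxcl15. Cxcl5, another Cxcr2 ligand, had 3 counts over the PC libraries and 78 over the RACM libraries, a RACM over PC ratio of 28.4 with a 95% exact binomial interval from 9.37 to 141, and Cxcl3 had 3 and 37 counts, a ratio of 13.5 (4.27 to 68.3). Both intervals cover counting error only. Cxcr2, the receptor of these ligands, had 0 counts in PC and 3 counts in RACM. The 8 neutrophil markers summed to at most 0.113 CPM in PC and 4.19 CPM in RACM, with S100a8, S100a9, Ly6g, Retnlg, Csf3r, Ltf and Mpo at 0 in all PC libraries.

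The stretches before the starts of Cxcl1, Cxcl2, Cxcl10 and Cxcl12 are shown because Cxcl1 and Cxcl2 were lower in PC, Cxcl10 had the smallest p over the p number, and Cxcl12 ran the other way. They are RefSeq sequences of build GRCm38.p6, the 230 bases before the annotated start, 5′ to 3′ on the gene's strand. Capitals mark matches, on either strand, to GGNNNTTCC, a loose form of the NF-kappaB site, and to GAAANNGAA, a loose form of the interferon response element. These motifs were chosen with the values known.
Cxcl1, chr5:90891015-90891244, plus strand: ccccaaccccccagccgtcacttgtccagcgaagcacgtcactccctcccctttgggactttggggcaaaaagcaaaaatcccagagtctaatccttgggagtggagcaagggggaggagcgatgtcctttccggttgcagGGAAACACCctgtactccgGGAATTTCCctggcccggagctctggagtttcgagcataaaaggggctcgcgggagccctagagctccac
Cxcl2, chr5:90903669-90903898, plus strand: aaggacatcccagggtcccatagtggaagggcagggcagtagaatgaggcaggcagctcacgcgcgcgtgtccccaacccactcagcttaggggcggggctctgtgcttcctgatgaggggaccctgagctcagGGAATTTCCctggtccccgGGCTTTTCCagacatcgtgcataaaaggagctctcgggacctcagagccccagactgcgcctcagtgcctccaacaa
Cxcl10, chr5:92348890-92349119, minus strand: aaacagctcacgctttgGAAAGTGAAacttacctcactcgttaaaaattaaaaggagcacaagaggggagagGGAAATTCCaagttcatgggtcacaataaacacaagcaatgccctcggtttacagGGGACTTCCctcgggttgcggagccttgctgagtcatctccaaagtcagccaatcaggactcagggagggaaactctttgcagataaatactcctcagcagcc
Cxcl12, chr6:117168305-117168534, plus strand: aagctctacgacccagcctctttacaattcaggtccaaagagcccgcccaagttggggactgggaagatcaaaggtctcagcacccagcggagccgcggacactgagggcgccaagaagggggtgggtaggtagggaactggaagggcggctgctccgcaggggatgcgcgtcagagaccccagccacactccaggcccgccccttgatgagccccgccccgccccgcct

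Cxcl1 held GGNNNTTCC at 2 places, beginning 89 and 70 bases before the start, and Cxcl2 at 2, beginning 96 and 77 bases before it. Cxcl10 held it at 158 and 103 bases before the start and held GAAANNGAA at 213 bases before it. The Cxcl12 stretch held neither. A promoter of 300 bases, from 250 before to 50 after the start, was given for 38 of the 55 genes, and 13 of these held GGNNNTTCC, against 18.5% of 32851 promoters of the same length. GAAANNGAA was in 8 of the 38, against 8.56% of all promoters. Among the 8 genes lower in PC that had a promoter entry, 4 held GGNNNTTCC, namely Cxcl1, Cxcl2, Ccl9 and Ccl12. These matches are letters in a window and do not show that a factor was bound.

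The monocyte attractants of the Ccr2 axis were lower in PC together with their receptor. Ccl2 (ENSMUSG00000035385, mm10 chromosome 11 from 82035571 to 82037453, plus strand) stood at 3.79, 3.68 and 5.62 CPM in the p0, p2 and p4 PC libraries, against 18.1, 54.3 and 124 CPM in the RACM libraries of those numbers. The groups did not overlap, and the PC libraries lay within a narrow band while the RACM libraries spread widely. The log2 fold change was -3.91 ± 0.62 (SE; edgeR adjusted p = 0.00755). Ccl7, which acts on Ccr2 and other receptors, was at 1.28, 2.32 and 0.756 CPM in PC, against 3.87, 17.5 and 37.1 CPM in RACM (log2 fold change -3.75 ± 0.78, edgeR adjusted p = 0.0228). Ccl12, a mouse ligand of Ccr2, had no count in PC p0 and p2 and 0.52 CPM in PC p4, against 3.87, 12.2 and 9.72 CPM in RACM (log2 fold change -5.50 ± 1.12, edgeR adjusted p = 0.021).

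Ccr2 itself, the receptor of recruited monocytes (ENSMUSG00000049103, chromosome 9 from 124101950 to 124113557, plus strand), had 0 counts in all 3 PC libraries. It had 10, 39 and 39 counts in RACM p0, p2 and p4, or 0.691, 2.33 and 1.88 CPM. Against a floor of 3 counts over the 3 PC libraries, it was at least 32.0-fold lower in PC, and the edgeR adjusted p was 0.0173. Ccl2, Ccl7, Ccl11 and Ccl12 adjoin each other on chromosome 11 with Ccl8 and Ccl1, and all 4 that were tested were lower in PC. Ccl11, the eosinophil attractant eotaxin, had 2 counts over PC and 60 over RACM, a RACM over PC ratio of 32.8 (exact binomial interval from 8.69 to 277; edgeR adjusted p = 0.0295). Ccr3, its receptor, had 0 and 9 counts, at least 3.28-fold lower in PC at the same floor, and was not tested.

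Ccl3 and Ccl4, macrophage inflammatory proteins of which Ccl3 acts through Ccr1, were lower in PC as well. Ccl3 (ENSMUSG00000000982, chromosome 11 from 83647844 to 83649355, minus strand) stood at 3.79, 0.961 and 5.95 CPM in PC, against 16.3, 40.0 and 101 CPM in RACM, with a log2 fold change of -3.86 ± 0.75 (SE; edgeR adjusted p = 0.0181). Ccl4 stood at 0.279, 0.0566 and 1.42 CPM in PC, against 3.11, 8.61 and 19.6 CPM in RACM (log2 fold change -4.11 ± 1.0, edgeR adjusted p = 0.0419). Neither gene's groups overlapped, and PC p2 was the lowest library for both. Their neighbours Ccl6 and Ccl9, mouse ligands of Ccr1, had log2 fold changes of -4.95 ± 0.94 and -4.48 ± 0.95 (edgeR adjusted p = 0.0158 and 0.0246). Ccl6 averaged 0.134 ± 0.121 CPM in PC against 4.46 ± 2.56 CPM in RACM, and Ccl9 averaged 0.432 ± 0.425 CPM in PC against 9.93 ± 5.42 CPM in RACM (SD, n = 3 each). Ccl5, a T cell attractant in the same cluster, was nearly silent, with at most 9 counts in a library.

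The receptor Ccr1 was lower in PC too. It was at 0.279, 0 and 0.425 CPM in PC, against 2.00, 3.53 and 5.48 CPM in RACM (log2 fold change -3.91 ± 0.96, edgeR adjusted p = 0.042). Ccr1 and Ccr2 lie on chromosome 9 in a run of receptor genes that also holds Ccr9, Cxcr6, Ccr1l1 and Ccr3, and the PC libraries of Ccr1 did not overlap those of RACM.

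**Figure D3:**
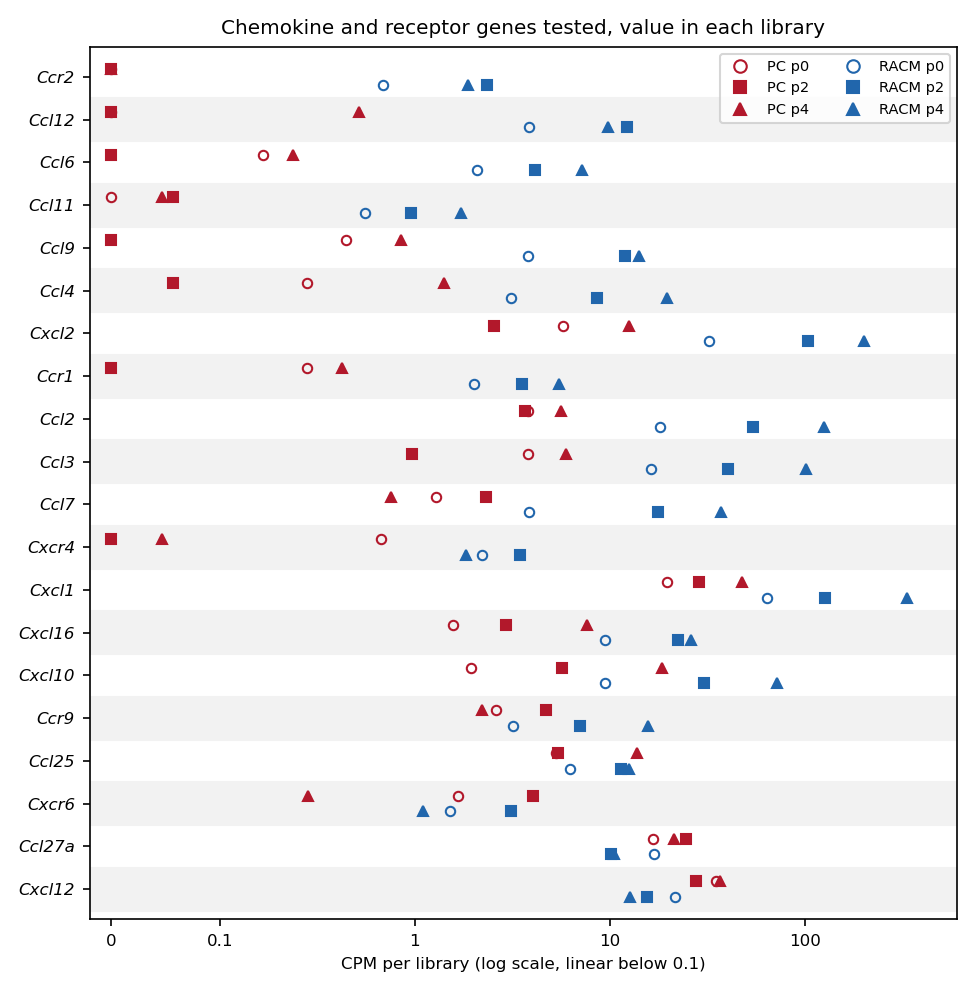
CPM in each library for 20 of the 21 genes tested, on an axis that is logarithmic above 0.1 CPM and linear below it, with PC drawn above RACM in each row and symbols for p0, p2 and p4. For 14 genes every PC symbol lies left of every RACM symbol, and for Cxcl12 every PC symbol lies right of them.

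Cxcl12 was the single gene of the 21 tested that was called higher in PC. It stood at 35.0, 27.5 and 36.6 CPM in the p0, p2 and p4 PC libraries, against 21.6, 15.4 and 12.6 CPM in the RACM libraries of those numbers (ENSMUSG00000061353, mm10 chromosome 6 from 117168535 to 117181367, plus strand). The groups did not overlap, and the lowest PC library was 27.5 CPM where the highest RACM library was 21.6 CPM. The log2 fold change was 1.0 ± 0.25 (SE; edgeR adjusted p = 0.044). This call sat close to the threshold: it was lost with upper-quartile scaling (adjusted p = 0.0507) and without p0, p2 or p4 of PC and without p2 or p4 of RACM, each left out alone (adjusted p from 0.0574 to 0.173), with the log2 fold change between 0.84 and 1.24 whichever library was left out.

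The receptors of Cxcl12 gave no call. Cxcr4, its signalling receptor, had 12, 0 and 1 counts in PC, or 0.669, 0 and 0.0472 CPM, against 2.21, 3.47 and 1.83 CPM in RACM (log2 fold change -3.37 ± 1.14, edgeR adjusted p = 0.12). Its groups did not overlap, and it passed by DESeq2, with no filter and without PC p0. Ackr3, a receptor that takes up Cxcl12 without G protein signalling, averaged 6.25 ± 3.54 CPM in PC against 6.33 ± 1.34 CPM in RACM (SD, n = 3 each; log2 fold change -0.02 ± 0.47, edgeR adjusted p = 0.989).

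Ccl27a, known as a skin chemokine that acts through Ccr10, was another gene whose PC mean lay above its RACM mean. It stood at 16.7, 24.6 and 21.4 CPM in PC and 16.7, 10.1 and 10.4 CPM in RACM, so the groups met at p0. It did not pass (log2 fold change 0.75 ± 0.28, edgeR adjusted p = 0.158). Ccl27b, a near-identical copy in the same cluster on chromosome 4, had 5 counts in PC and 5 in RACM, and reads shared between the copies make both values uncertain. The same holds for Ccl21a and Ccl21b and for Ccl19 and its pseudogenes.

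Cxcl10 and Cxcl16 lay lower in PC in their means, without an edgeR call. Cxcl10, an interferon-induced ligand of Cxcr3, was at 1.95, 5.66 and 18.5 CPM in the p0, p2 and p4 PC libraries, against 9.46, 30.1 and 72.0 CPM in the RACM libraries of those numbers (log2 fold change -2.09 ± 0.84, edgeR adjusted p = 0.187). The groups overlapped, since PC p4 lay above RACM p0, yet at each p number the PC library was the lower of the pair. Cxcl16, a membrane-bound ligand of Cxcr6, was at 1.56, 2.94 and 7.61 CPM in PC, against 9.39, 22.4 and 26.0 CPM in RACM, without overlap (log2 fold change -2.25 ± 0.59, edgeR adjusted p = 0.0543). Of their exon bases, 5.91% of Cxcl10 and 18.3% of Cxcl16 were shared with another gene, Art3 and Zmynd15, and reads there were counted without strand.

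With the p number as a replicate block, 15 of the 21 genes were lower in PC and 1 was higher, where 5.60% of all genes tested were lower and 5.96% were higher. All 13 calls were kept. Cxcl10 and Cxcl16 were among those that joined them, with paired log2 fold changes of -2.21 ± 0.20 and -2.40 ± 0.31 (edgeR adjusted p = 0.00077 and 0.00343). The numbers were taken to pair the libraries from the data, not from a label.

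Of the other tested receptors and their ligands, none passed. Ccl25, which guides thymocytes and gut lymphocytes, averaged 8.14 ± 4.81 CPM in PC against 10.1 ± 3.36 CPM in RACM (SD, n = 3 each; log2 fold change -0.30 ± 0.46, edgeR adjusted p = 0.776). Its receptor Ccr9 averaged 3.18 ± 1.33 CPM in PC against 8.64 ± 6.44 CPM in RACM (edgeR adjusted p = 0.204), and 21.5% of its exon bases were shared with other genes. Cxcr6, the receptor of Cxcl16, was at 1.67, 4.02 and 0.283 CPM in PC and 1.52, 3.11 and 1.11 CPM in RACM (log2 fold change 0.05 ± 0.87, edgeR adjusted p = 0.982). Its sign turned with upper-quartile scaling, limma-voom and the replicate block (-0.0049, -0.54 and -0.38).

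The ligands and receptors of lymphoid organs were at or near the limit of counting. Ccl19 and Ccl21a, which guide dendritic and T cells through Ccr7, had 13 and 36 counts over the PC libraries and 2 and 7 over the RACM libraries. The Ccl19 ratio, PC over RACM, was 5.95 with an exact binomial interval from 1.35 to 54.3. Ccr7 had 1 count in PC and 0 in RACM. Cxcl13, a B cell attractant, had 0 counts in PC and 18 in RACM, all 18 in RACM p4, and its receptor Cxcr5 had 22 and 7 counts. Cxcl9, an interferon-induced ligand, had 14 counts in PC and 85 in RACM, and its receptor Cxcr3 had 0 and 8. Cxcl14 had 13 counts in PC, all in p4, and 19 in RACM. No test was made for any of these, and several of the sums came mostly from 1 library.

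Per kilobase of exon, the order of the ligands differed between the cell types in these means. In PC, Cxcl1 came first at 17.0 ± 7.54 CPM per kb, then Ccl27a at 8.78 ± 1.68, Ccl3 at 4.66 ± 3.27, Cxcl12 at 4.04 ± 0.59, Cxcl10 at 3.86 ± 3.85 and Ccl2 at 3.83 ± 0.96 CPM per kb (SD, n = 3). Among the last 4, each neighbouring pair differed by less than the larger of its SDs. In RACM, Cxcl1 came first at 92.6 ± 74.6 CPM per kb, then Ccl3 at 68.2 ± 56.7, Ccl2 at 57.6 ± 47.5, Cxcl2 at 54.2 ± 40.8 and Ccl7 at 24.3 ± 20.8 CPM per kb. The first 4 of these could not be ordered within their SD. Cxcl12, with a long exon length of 8176 bases, was at 2.02 ± 0.56 CPM per kb in RACM.

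The 12 lower calls changed with the libraries used, as did the calls over all genes, which were 7.27% with all libraries, 2.95% without PC p0, 2.71% without RACM p2 and 3.85% without RACM p4. Without PC p0 none of the 12 passed (adjusted p from 0.0522 to 0.138), while Cxcr4 did, and the log2 fold changes of Ccl2 and Ccl3 were then -3.82 and -3.90. Further, without RACM p2 there were 3 left, Ccl2, Ccl3 and Cxcl2 (the others from 0.0581 to 0.13), and without RACM p4 there were 4, Ccl2, Ccl3, Ccl12 and Cxcl2 (the others from 0.054 to 0.162). With PC p2 left out 9 of the 12 passed, with PC p4 left out 8 and with RACM p0 left out 10 (the others from 0.0502 to 0.102). By limma-voom, 3 of the 12 passed, Ccl12, Ccr2 and Cxcl2 (the others from 0.051 to 0.119), and by DESeq2 all 12 did, where these called 5.93% and 12.8% of all genes. The log2 fold change of each of the 12 was negative in every setting that gave a value.

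Macrophage markers were lower in PC as well. Their sum was 35.0 CPM in PC p0, 16.4 CPM in PC p2 and 54.9 CPM in PC p4. In PC, Ccl2, Ccl3, Ccl4, Ccl6, Ccl9, Ccr1 and Cxcl2 of the 12 lower chemokine genes also had their lowest value in p2. Cxcl1 and Ccl11 were lowest in p0 and Ccl7 in p4, while Ccl12 had no count in p0 or p2 and Ccr2 had none in PC. Of the 14 markers, 12 were called lower in PC, where 3.57% of all genes tested were, and the median log2 fold change was -3.99. Some of these markers, such as Csf1r and C1qa, passed the filter only through their RACM level. Csf1r stood at 5.52, 0.283 and 9.26 CPM in PC, against 26.1, 89.5 and 122 CPM in RACM. The 12 lower chemokine genes summed to 35.3, 38.2 and 75.6 CPM in PC, against 150 CPM, 386 CPM and 853 CPM in RACM, in the order p0, p2, p4. Divided by the summed macrophage markers of the same library, they came to 1.01, 2.33 and 1.38 in PC, against 0.662, 0.691 and 0.916 in RACM. Cxcl1 gave 19.5, 28.6 and 47.2 CPM of the PC sums and 63.5, 127 and 331 CPM of the RACM sums. The 12 genes were picked from these same data as lower in PC. For this sum per unit of macrophage marker, every PC library lay above every RACM library. Of the 12 genes taken singly, that held for Cxcl1 alone, at 0.558, 1.74 and 0.861 in PC against 0.280, 0.227 and 0.356 in RACM. Fibroblast markers, 9 genes, summed to 879, 990 and 2245 CPM in PC and 1690, 3883 and 11278 CPM in RACM. All 9 had a negative log2 fold change, PC minus RACM, with a median of -2.02, and 2 passed as lower. With the replicate block 7 of them and all 14 macrophage markers passed, where 5.60% of all genes tested were lower. The part of these cells in the chemokine differences was not tested.

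**Figure D4:**
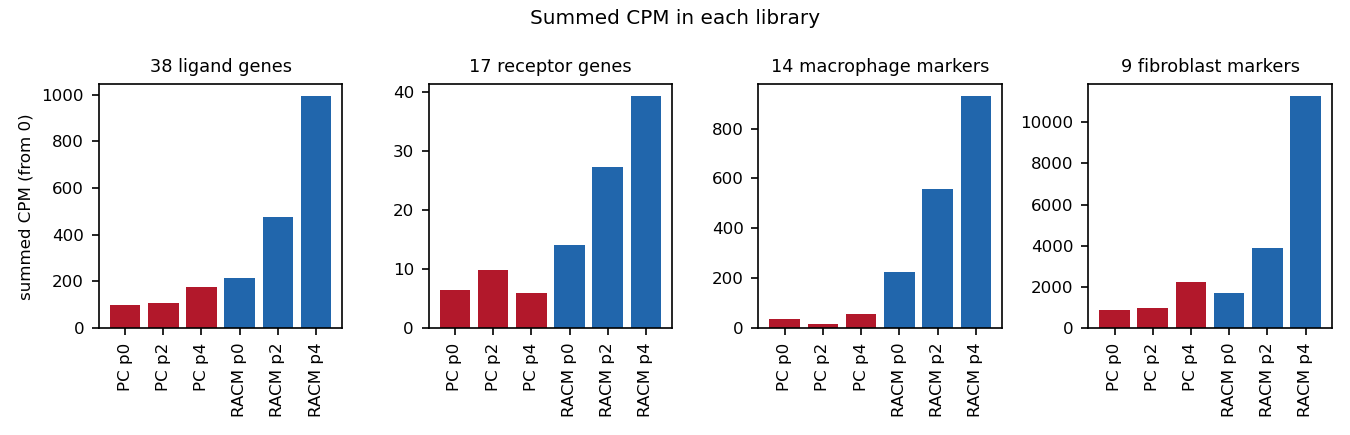
Summed CPM in each library of the 38 ligand genes, the 17 receptor genes, 14 macrophage markers and 9 fibroblast markers, on axes that start at 0, with PC bars left of RACM bars. Ligands reach 994 CPM and macrophage markers 931 CPM in RACM p4, and the highest PC bar of each is 175 and 54.9 CPM.

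The libraries were next compared by p number. The edgeR F test of the p number, with cell type as a covariate, called none of the 21 genes, where it called 0.00555% of all genes tested, 1 gene in all. At an unadjusted p below 0.05 there were 8 of the 21 and 2141 of all 18015 genes. Limma-voom and DESeq2 each called 5 of the 21, where they called 0.944% and 3.72% of all genes, and the edgeR fit with no filter called 7, where it called 2.18% of all genes. Cxcl10 came nearest, with a log2 difference of 3.08, p4 minus p0 (edgeR adjusted p = 0.0529), followed by Cxcl1 at 1.85 (adjusted p = 0.103) and Cxcl16 at 1.88 (adjusted p = 0.211). Cxcl2, Ccl4 and Ccl2 had adjusted p of 0.318, 0.308 and 0.32. Cxcl10 passed by limma-voom, by DESeq2, with either other filter and without any 1 library (adjusted p up to 0.0171), and did not pass with RLE or upper-quartile scaling (up to 0.0696). Cxcl1 passed in 9 of 12 alternatives, and did not with either scaling or without RACM p0 (up to 0.118). Cxcl16 passed with no filter, by DESeq2 and without PC p2 or RACM p4 (up to 0.0432).

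The values over p0, p2 and p4 differed between genes. In RACM, 15 of the 21 genes tested lay in the order p0, p2, p4 from low to high, against 22.4% of all genes tested, and Cxcl12 lay in the opposite order. In PC, 4 of the 21 did so, Ccl25, Cxcl1, Cxcl10 and Cxcl16, against 14.4% of all genes tested. In both cell types p4 was the highest library for 12 of the 21, against 15.7% of all genes tested. These genes are not independent of each other, and each cell type has 1 library per p number, so no test within a cell type was possible.

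The size of the p4 to p0 ratio varied within the family. Cxcl10 in p4 was 9.47 times its p0 level in PC and 7.61 times in RACM. For Ccl2 the ratio was 1.48 in PC and 6.88 in RACM, and for Ccl3 it was 1.57 and 6.17. Ccl7 had a ratio of 0.59 in PC and 9.59 in RACM, so it was lower in p4 than in p0 in PC and higher in RACM. Cxcl12 had 1.05 in PC and 0.583 in RACM. The difference between the cell types in these ratios was not tested, since 1 library stands for each value.

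Summed macrophage markers took the order p0, p2, p4 in RACM too, and summed fibroblast markers took it in both cell types. At an unadjusted p below 0.05 in the F test of the p number there were 7 of 9 fibroblast markers, with a median log2 difference of 1.90, p4 minus p0, and 4 of 14 macrophage markers, with a median of 1.22. Of all 18015 genes tested, 2141 had such a p. T and NK cell markers summed to 1.45, 0.17 and 5.57 CPM in PC and 1.52, 3.35 and 42.2 CPM in RACM, where Cd3e, a defining T cell gene, had 5.10 CPM in p4 and 0 in p0 and p2. The part of these cells in the p number values was not tested.

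**Figure D5:**
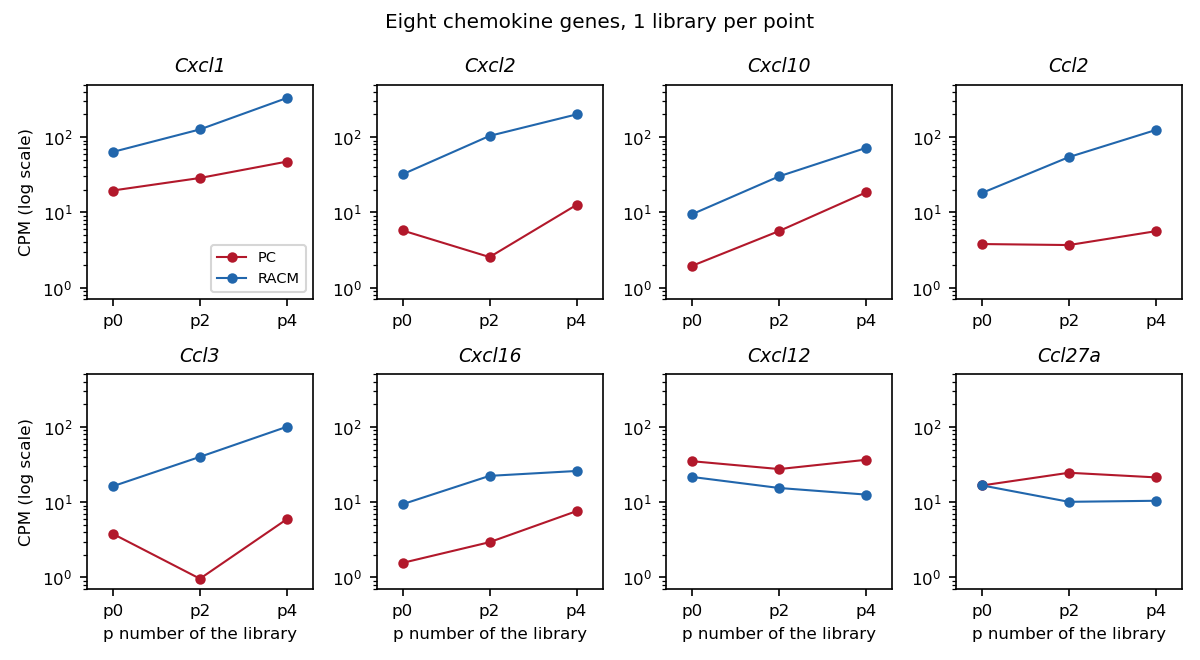
CPM over p0, p2 and p4 in PC and RACM for Cxcl1, Cxcl2, Cxcl10, Ccl2, Ccl3, Cxcl16, Cxcl12 and Ccl27a, 1 library per point, on a shared logarithmic axis. The inflammatory ligands climb to their highest RACM value in p4, at 331 CPM for Cxcl1 and 72.0 CPM for Cxcl10, while Cxcl12 in RACM is lowest there at 12.6 CPM.

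Other genes of the chemokine system were followed through lists chosen for this purpose. Of 15 tested genes outside the naming rule, 2 were lower in PC and none higher (median log2 fold change -0.78). Over all genes tested, 3.57% were lower and 3.69% were higher. Cx3cr1, the fractalkine receptor of macrophages and monocytes, was at 0.613, 0.452 and 0.52 CPM in PC, against 4.28, 19.0 and 22.7 CPM in RACM (log2 fold change -4.84 ± 0.66, edgeR adjusted p = 0.00358). Pf4, a CXC chemokine of platelets and macrophages, was at 5.41, 2.88 and 7.37 CPM in PC, against 18.7, 46.5 and 140 CPM in RACM (-3.71 ± 0.69, edgeR adjusted p = 0.0149). Neither gene's groups overlapped, and Cx3cr1 passed the filter only through its RACM level. Cx3cl1, the ligand of Cx3cr1, had 21 counts in PC and 9 in RACM and was not tested. Of those with a higher PC mean, Ackr4, a scavenging receptor, and Cmtm6 had log2 fold changes of 1.27 ± 0.59 and 0.41 ± 0.26 and did not pass (edgeR adjusted p = 0.266 and 0.422).

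Among 35 tested genes of signalling below chemokine receptors, 9 were lower in PC and 1 was higher (median log2 fold change -0.57). The shares over all genes tested were 3.57% lower and 3.69% higher. Grk5, a kinase that desensitises G protein-coupled receptors, averaged 31.4 ± 2.95 CPM in PC against 72.8 ± 7.49 CPM in RACM (SD, n = 3 each; log2 fold change -1.21 ± 0.17, edgeR adjusted p = 0.004). Rgs1, a leukocyte brake on G protein signalling, averaged 2.46 ± 1.79 CPM in PC against 56.1 ± 23.2 CPM in RACM (edgeR adjusted p = 0.00468). Pik3r5, a regulatory subunit of phosphoinositide 3-kinase gamma, was the higher gene, at 64.8, 59.1 and 75.2 CPM in PC, against 41.9, 36.4 and 28.4 CPM in RACM (log2 fold change 0.90 ± 0.20, edgeR adjusted p = 0.0266). Its catalytic partner Pik3cg was lower in PC, by 4.97 on the log2 scale (edgeR adjusted p = 0.0259). Rgs1 and Pik3cg were among the lower genes that passed the filter only through their RACM level. Gnai1, a G protein subunit, had a log2 fold change of 0.57 ± 0.26 and did not pass (edgeR adjusted p = 0.247).

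Cytokines and NF-kappaB regulators, which govern many of the inflammatory ligands, had 11 of 27 tested genes lower in PC and none higher (median log2 fold change -1.68). With the replicate block, 14 were lower and 1 was higher. All genes tested gave 3.57% lower and 3.69% higher, or 5.60% and 5.96% with the block. Tlr7, a sensor of viral RNA, and Il1a, an inflammatory cytokine, had the smallest p among the lower genes, at log2 fold changes of -4.86 ± 0.77 and -4.39 ± 0.73 (edgeR adjusted p = 0.0075 and 0.00919). Both, and others of the lower genes such as Tnf, passed the filter only through their RACM level. Il1r1, the interleukin 1 receptor, averaged 86.6 ± 4.08 CPM in PC against 58.3 ± 10.3 CPM in RACM (SD, n = 3 each; log2 fold change 0.57 ± 0.17, edgeR adjusted p = 0.0866). It did not pass, but was the higher gene with the block (0.58 ± 0.15, edgeR adjusted p = 0.0441). Csf1, a macrophage growth factor, averaged 26.5 ± 11.1 CPM in PC against 18.1 ± 6.71 CPM in RACM (edgeR adjusted p = 0.432). Of 12 tested interferon regulators, 2 were lower and none higher, Irf5 and Irf7, with log2 fold changes of -4.13 ± 0.82 and -1.86 ± 0.48 (edgeR adjusted p = 0.0187 and 0.0489). Irf5 passed the filter only through its RACM level. With the replicate block 4 were lower. Ifnar1, an interferon receptor, was alone in having a positive log2 fold change, 0.05 ± 0.17 (edgeR adjusted p = 0.915).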

How the data were processed

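Per the file headers, the authors ran featureCounts 2.0.1 on the exons of an mm10 annotation, with no strand option, and deposited unnormalized fragment counts. The deposited gene length column gave CPM per kb. Trimmomatic and HISAT2 are named without versions, and edgeR too, per the submitters' processing notes. Amplification with the Ovation V2 kit is given in the labels' protocols. Symbols matched 55141 IDs. The filter filterByExpr, set to a minimum of 10 counts and a total of 15, left 18015 genes. They were scaled by TMM and tested 2-sided by quasi-likelihood in edgeR 4.0.16 (R 4.3.3). P-values were adjusted by Benjamini-Hochberg, and those below 0.05 were called. CPM uses TMM-scaled library sizes. SE is the log2 fold change over the root of F. With 3 libraries against 3, an exact permutation test cannot go below 0.1 and none is given. Steps were tested on simulated data.

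The genes, lists, markers, motifs and tests were chosen with earlier results of these data known. Named with values are all called genes, those of at least 10 CPM on average in a cell type, set ligand and receptor pairs, and the 6 of next smallest p per test, with the 2 of smallest p in each direction for other lists. Other genes were named after their values were seen. PC and RACM libraries of 1 number deviated together (r over genes 0.156 for p0, 0.234 for p2, 0.237 for p4), so the numbers were taken to pair the libraries, from the data alone. Replicates were not near-identical (chi-square per degree of freedom 26.2 to 65.6). Labels call the pools biological replicates. Also run were upper-quartile and RLE scaling, no filter, a 5 CPM filter, limma-voom (limma 3.58.1), DESeq2 1.42.0, the block, and libraries left out. Floors of 3 counts and 95% exact binomial intervals reflect counting error alone, as amplified reads are no independent molecules. Promoters are from RefSeq, GRCm38.p6. ATAC-seq, 7 samples, was not used here. The values of 1 gene of the family, counted in the totals, are not reported here.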

Additional observations from a re-analysis of the deposited data

Results flagged for a closer look

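Ccl27a is given because both its p2 and its p4 library lay above p0 in PC and below p0 in RACM. For Ccl7, Ccr9 and Cxcl12 p4 also lay on opposite sides of p0 in the 2 cell types, with p2 and p4 of PC on either side of p0. Its level in p4 minus p0 was 4.69 CPM in PC, with 21.4 CPM in p4 and 16.7 CPM in p0, and -6.28 CPM in RACM, with 10.4 CPM in p4 and 16.7 CPM in p0. Each value rests on 1 library, so the difference between the cell types was not tested. The F test of the p number gave no call for Ccl27a (edgeR adjusted p = 0.939).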

How the results depend on the processing

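The 13 calls of PC against RACM became 6 with a 5 CPM minimum, where 4 of the 12 lower genes had a value, 4 by limma-voom, 7 without both p4 libraries, 19 with no filter, 16 by DESeq2 and from 1 (Cxcr4, without PC p0) to 13 without 1 library. Calls over all genes, 7.27% in the main fit, moved as well. They were 10.9%, 5.93%, 4.07%, 7.07% and 12.8% in these settings, and from 2.71% to 6.88% without 1 library. Lower calls over the whole family went from 12 to 5 with the 5 CPM minimum, 3 by limma-voom and 7 without both p4 libraries. They ran from 1 to 12 without 1 library. Of the 12 genes themselves, 4, 3 and 6 were kept in those 3 settings, and from 0 to 10 without 1 library. The single higher call became 0 with upper-quartile scaling and without both p4 libraries, and from 0 to 1 without 1 library. With the replicate block there were 16 calls, where 11.6% of all genes tested were called. The 0 calls of the p number became 7 with no filter, 2 with that minimum, 5 by limma-voom, 5 by DESeq2 and from 1 to 7 without 1 library, where the single call over all genes became 720, 54, 170, 670 and from 77 to 458. The cause was not tested.

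Cxcr6, PC minus RACM, turned to -0.0049 (upper-quartile scaling), -0.54 (limma-voom) and -0.38 (replicate block), and ran from -0.95 to 0.59 without 1 library, negative without PC p2, RACM p0 or RACM p4, never with a call. For p4 minus p0, signs turned when 1 library was left out for Ccl6 (from -0.033 to 2.14), Ccl7 (-0.40 to 2.94), Ccl27a (-0.74 to 0.41, with 0.0093 without RACM p4), Ccr2 (-0.14 to 1.45), Ccr9 (-0.16 to 2.24), Cxcl12 (-0.73 to 0.030) and Cxcr4 (-4.55 to 0.022). The library was RACM p0 for Ccl6 and Ccr2, RACM p4 for Ccl7, Ccr9 and Cxcl12, both for Ccl27a, and PC p0 for Cxcr4. Of 281 results by setting for PC minus RACM, 200 kept their direction and side of the threshold, 59 lost a call and 16 gained one, and of 237 for p4 minus p0, 187 kept both and 42 gained a call. A further 28 gave no value. The median of all genes moved to -0.12 with no filter.

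Calls in other lists ranged from 0 to 5 (2 for other chemokine genes), 3 to 15 (10 for signalling), 4 to 17 (11 for cytokines) and 0 to 4 (2 for interferon regulators). Over all genes the calls ranged from 2.71% to 12.8% (7.27% in the main fit). Low counts limit the receptors and lymphoid ligands most.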
